A study of Mus musculus with 6 samples.

Results

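Transcript levels of 58 neighbouring genes of distal mouse chromosome 8, in order from Ranbp10 to Gas8, were compared between embryonic stem cells without and with Sirt1. The list held 59 genes that had been picked by symbol as neighbours on that chromosome and as higher in cells without Sirt1. Each gene was read on its brightest probe set, by the mean of all 6 arrays. Nutf2, a nuclear transport factor, had no probe set annotated to it alone and was not analysed here, which left 58 of the 18193 genes measured. Because the comparison between genotypes chose these genes, their differences are given as a description and without a test.

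The cells were R1 mouse embryonic stem cells of the strain (129X1 x 129S1)F1. The 3 knockout samples (KO) carried the genotype Sirt1-/- and the 3 wild-type samples (WT) the genotype Sirt1+/+. Cells of both genotypes were grown in serum medium with leukaemia inhibitory factor, a cytokine that sustains self-renewal, on gelatin-coated dishes. The labels name 1 source of cells per genotype, so an effect of Sirt1 loss and any other difference between the sources cannot be told apart. Nothing in the labels says that the 3 arrays of a genotype stand for separate cultures. A p-value below thus reflects the spread among arrays alone, and that spread may be technical.

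Sirt1 encodes an NAD-dependent protein deacetylase of the nucleus. The 58 genes share their place on the chromosome and no common pathway. They code for a cadherin pair, Golgi tethers, parts of the RNA decay machinery, telomere and kinetochore proteins, lysosomal enzymes and others. Mouse chromosome 8 is known as one that embryonic stem cell cultures can gain in an extra copy. The number of copies was not measured in these samples, so a difference in gene copies and a difference in transcription of the same copies cannot be told apart.

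The arrays gave log2 levels after RMA, a procedure that corrects background, equalises the arrays and summarises the probes of a set. Pearson's r across all genes was 0.997 to 0.998 between arrays of the same genotype and 0.989 to 0.991 between genotypes. Sirt1 itself read 8.02, 7.94 and 8.20 in KO arrays, against 10.12, 10.13 and 10.23 in WT arrays. Where its probe set lies relative to the deleted sequence was not examined. All 4 stem cell markers examined (Pou5f1, Sox2, Nanog and Zfp42) lay above the median WT level of all genes, 5.89, in both genotypes. The log2 of their summed unlogged levels was 13.95 to 13.99 in KO and 14.21 to 14.26 in WT arrays. Such a sum weighs the brightest markers most. Nanog fell by 0.90, Sox2 by 0.31 and Zfp42 by 0.23 (limma, Benjamini-Hochberg adjusted p = 0.0001, 0.00526 and 0.00977). Pou5f1 was higher in KO by 0.10 and did not pass (limma, Benjamini-Hochberg adjusted p = 0.154). The same log2 of a sum was 7.95 to 8.16 in KO and 8.33 to 8.54 in WT arrays for 6 fibroblast markers. For 4 endoderm markers it was 6.52 to 6.72 in KO and 7.72 to 7.84 in WT arrays. For 3 neural markers it was 7.21 to 7.40 in KO and 6.91 to 7.16 in WT arrays. Single markers did not all follow these sums: the fibroblast markers Thy1 and Pdgfrb fell by 1.07 and 0.50 while Twist1 rose by 0.48, and among the neural markers Nes rose by 0.43 while Pax6 and Sox1 did not pass in limma. The part of these markers in the results below was not tested. Lower levels from fewer cells of a type and from less RNA per cell cannot be told apart in bulk samples.

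Promoter sequences are shown for 5 of the genes, because the genes moved together while some close neighbours did not. Of the genes measured, 45 had an entry in the RefSeq promoter table for GRCm38.p6, which holds 250 bases before and 50 bases after a transcription start. Cyb5b and Ctu2 were among the genes with the largest differences, and Terf2 and Spg7 among those with the smallest. Nip7 was added after the values were seen, because its start lies 140 bases from that of Cog8 on the opposite strand. The start of Ctu2 lies likewise 69 bases from that of Rnf166. Capitals mark exact matches on either strand to the GC box GGGCGG, the CCAAT box, the TATA box TATAAA, the E-box CACCTG and the E-box CACGTG. No matches overlap in the windows shown. The windows lie on GRCm38.p6 at chr8:107150411-107150710 (Cyb5b, plus strand), chr8:122475893-122476192 (Ctu2, plus strand), chr8:107056627-107056926 (Nip7, plus strand), chr8:107096496-107096795 (Terf2, minus strand) and chr8:123065258-123065557 (Spg7, plus strand). Each is written from 5′ to 3′ along the gene.
Cyb5b: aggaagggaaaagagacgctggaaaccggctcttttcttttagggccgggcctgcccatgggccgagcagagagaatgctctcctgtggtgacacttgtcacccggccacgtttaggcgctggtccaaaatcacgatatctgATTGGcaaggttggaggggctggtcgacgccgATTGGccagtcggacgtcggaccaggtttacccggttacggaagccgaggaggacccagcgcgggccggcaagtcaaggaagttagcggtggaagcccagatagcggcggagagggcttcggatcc
Ctu2: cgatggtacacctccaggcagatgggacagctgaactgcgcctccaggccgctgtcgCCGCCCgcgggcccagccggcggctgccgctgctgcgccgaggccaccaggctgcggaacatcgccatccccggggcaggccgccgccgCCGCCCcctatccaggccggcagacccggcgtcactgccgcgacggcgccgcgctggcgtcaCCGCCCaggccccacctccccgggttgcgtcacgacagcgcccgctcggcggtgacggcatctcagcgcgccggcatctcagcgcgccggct
Nip7: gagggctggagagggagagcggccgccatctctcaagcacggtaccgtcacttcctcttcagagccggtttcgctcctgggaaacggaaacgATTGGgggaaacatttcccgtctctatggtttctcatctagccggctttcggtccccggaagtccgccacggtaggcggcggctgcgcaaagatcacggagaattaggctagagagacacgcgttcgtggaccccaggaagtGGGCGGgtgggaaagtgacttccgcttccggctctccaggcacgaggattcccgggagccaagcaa
Terf2: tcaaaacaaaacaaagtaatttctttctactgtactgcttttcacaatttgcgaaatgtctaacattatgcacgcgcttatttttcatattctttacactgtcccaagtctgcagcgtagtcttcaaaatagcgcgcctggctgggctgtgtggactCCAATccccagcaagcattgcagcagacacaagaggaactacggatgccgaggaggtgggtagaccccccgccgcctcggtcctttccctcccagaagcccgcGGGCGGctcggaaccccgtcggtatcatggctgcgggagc
Spg7: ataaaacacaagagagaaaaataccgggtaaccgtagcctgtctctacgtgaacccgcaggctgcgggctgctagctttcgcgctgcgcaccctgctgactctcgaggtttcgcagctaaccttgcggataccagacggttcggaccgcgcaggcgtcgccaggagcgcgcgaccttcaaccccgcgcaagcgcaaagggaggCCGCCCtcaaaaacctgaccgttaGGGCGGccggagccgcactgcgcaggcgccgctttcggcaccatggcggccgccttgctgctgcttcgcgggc

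Both the genes with large and those with small differences had such matches. The GC box matched 3 times in the Ctu2 window, 2 times in that of Spg7, 1 time each in those of Nip7 and Terf2 and 0 times in that of Cyb5b. CCAAT matched 2 times in the Cyb5b window and 1 time each in those of Nip7 and Terf2. Over the 45 genes with an entry, GGGCGG was found in the windows of 31 (68.9%), against 73.1% of the 7502 array genes above the median level and 38.2% of all 27025 genes of the table. The shares were 37.8%, 43.8% and 41.1% for CCAAT, 8.89%, 7.77% and 15.7% for TATAAA, 24.4%, 20.6% and 22.6% for CACCTG, and 13.3%, 12.7% and 8.09% for CACGTG, in the same order of sets. The median GC content of the windows was 60.7% for the genes from Ranbp10 to Gas8 and 61.7% for array genes above the median level. A match describes letters and not a site in use.

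Most of the 58 genes were higher in KO cells, by amounts that were mostly small and that varied between genes. The median difference, KO minus WT, was 0.36 on the log2 scale, a ratio of 1.28. The quartiles were 0.19 and 0.55, and 31 of the 58 genes lay within 0.2 of the median. The median absolute difference between neighbouring listed genes was 0.33. The whole range ran from -0.33 for Galns to 2.10 for Wwox. As a scale for these values, the log2 of 3 over 2 is 0.585. Over all 18193 genes the difference was above 0 for 8516. Among the 58 genes it was above 0 for 50 and at or below 0 for 8. It was at least 0.5 for 18 genes, a size that 3.46% of all genes reached, and at least 2-fold for 3. The median difference over all 18193 genes was -0.01.

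In the 3 KO arrays the median of the 58 genes, each set against its own WT mean, was 0.35, 0.37 and 0.36. In the 3 WT arrays it was -0.00, -0.03 and 0.02. No KO array thus stood apart from the other KO arrays. The genes were chosen as higher in these KO arrays, so the gap between KO and WT arrays in this median was built in. Nothing is read from that gap. Genes of all other chromosomes gave -0.00, -0.03 and -0.03 in KO arrays and 0.00, -0.00 and 0.00 in WT arrays. The spread between arrays was small, with a median SD within a genotype of 0.06 for the 58 genes and 0.10 for all genes.

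**Figure D1:**
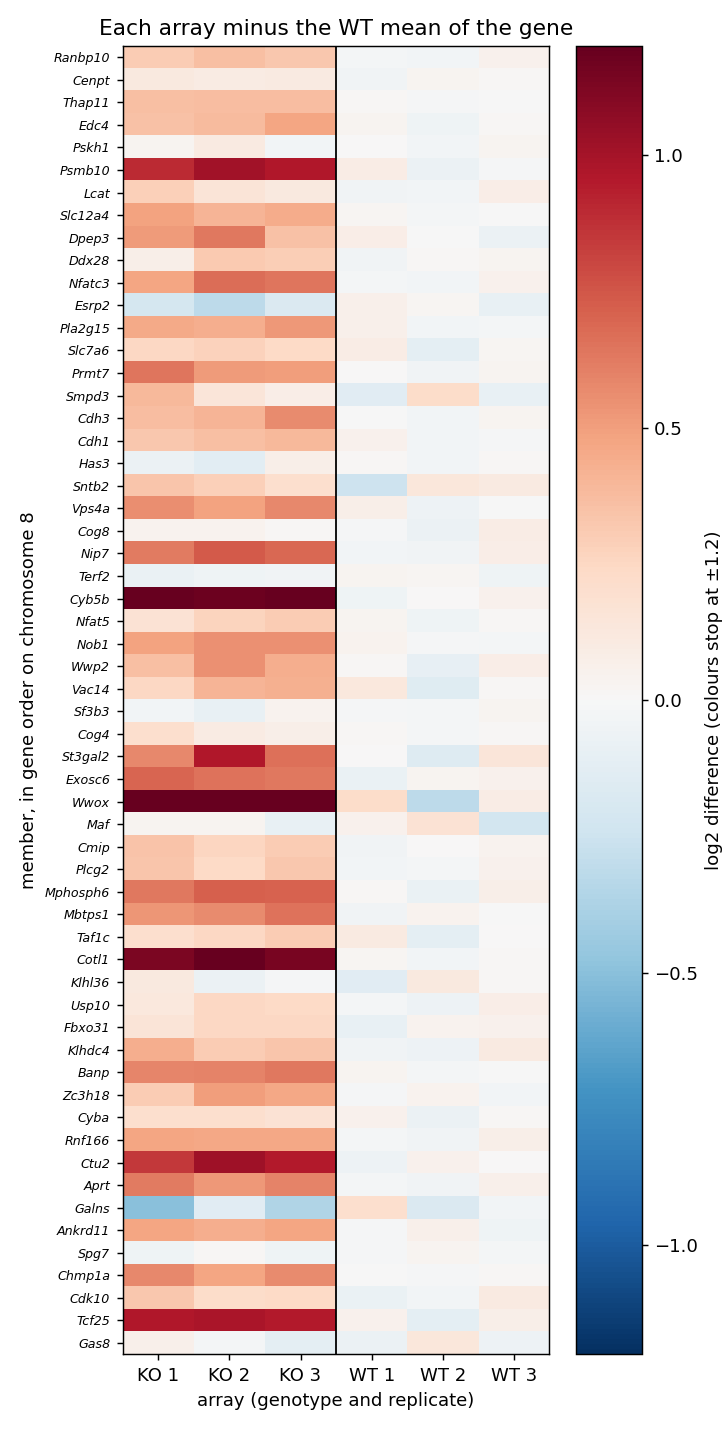
Log2 level of each of the 58 genes (rows, in gene order) on each array (columns, KO left and WT right) minus the WT mean of the gene, with colours that stop at 1.2 in either direction. Most rows are raised on all 3 KO arrays, with medians of 0.35, 0.37 and 0.36, and a few rows, such as Terf2, Sf3b3 and Spg7, stay pale.

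For 46 of the 58 genes all KO arrays lay above all WT arrays, for 1 (Esrp2) all lay below, and for 11 the arrays overlapped. Over all genes 19.1% lay wholly above and 24.7% wholly below. In limma's fit over all genes, with Benjamini-Hochberg adjustment at 0.05, 41 of the 58 were higher and 1 was lower. Of all genes 12.5% were higher and 17.5% lower, or 30.0% in either direction. Since the same comparison chose the genes, nothing is read from these counts. The median difference of the genes of other chromosomes was -0.02 before any centring. Centring the arrays on the median level of those genes equalised that level, not their differences. It moved all differences up together, and the median over all genes to 0.11. Values under it are thus not set against a median difference of 0. Of the 8 listed genes at or below 0, only Esrp2 and Galns then stayed below it. The calls among all genes were then 4532 higher and 2070 lower in place of 2270 and 3192. Higher calls made up 68.6% of all calls under that centring and 41.6% without it. Of the 58 genes 46 were then higher and 0 lower.

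The difference was read mainly in genes with a clear signal. Of the 58 genes 45 had a WT level above the median of all genes. Their median difference was 0.40, and in 40 of them the KO arrays lay wholly above. Of the 13 dimmer genes the median was 0.19, and 6 lay wholly above. Over all genes, 2699 of the 9096 above the median level lay wholly above, and 777 of the 9097 others. Such separation was thus commoner among brighter genes in general. Array levels near background are known to understate differences, but whether this lowered the median of the dimmer genes was not tested. Across the 58 genes the WT level and the difference had a Spearman's rho of 0.28 and a Pearson's r of 0.18. Position in the row of genes and the difference had a rho of 0.07. These describe genes that share the same 6 arrays and are not independent. The 29 genes nearer the centromere had a median of 0.36 and so had the 29 nearer the distal end.

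The genes of chromatin, transcription and chromosome structure had a median difference of 0.37 over 11 genes, with 9 wholly above in KO. Over all genes 19.1% lay wholly above, and 2699 of the 9096 above the median level. The listed genes were chosen as higher in KO, so nothing is read from such counts in this or the following groups. Thap11, a zinc finger factor known for its role in embryonic stem cell self-renewal, read 9.26, 9.27 and 9.27 in KO and 8.92, 8.89 and 8.90 in WT arrays. Its difference of 0.37 was close to the median of all 58. Prmt7, an arginine methyltransferase, read 10.41, 10.28 and 10.27 in KO and 9.78, 9.73 and 9.81 in WT arrays, a difference of 0.55. Ankrd11, a chromatin cofactor, read 9.75, 9.71 and 9.75 in KO and 9.27, 9.34 and 9.22 in WT arrays. It had 7 probe sets, all higher in KO, by 0.34 to 1.63. Banp, which binds CpG-rich promoters, differed by 0.61 and the calcium-regulated factor Nfatc3 by 0.59. Nfat5, the related factor of osmotic stress, differed by 0.25 and the RNA polymerase I factor Taf1c by 0.25.

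Terf2 and Maf were the genes of this group whose arrays overlapped. Terf2, which protects chromosome ends as part of shelterin, read 8.83, 8.86 and 8.87 in KO and 8.94, 8.93 and 8.86 in WT arrays. Its difference was -0.06, and 0.07 with arrays centred on the genes of other chromosomes. The other 2 Terf2 probe sets gave -0.15 and 0.18. Maf, a leucine zipper factor, was dim, at 4.35 ± 0.07 in KO and 4.35 ± 0.20 in WT arrays (SD, n = 3 each). Cenpt, which links centromeric chromatin to the outer kinetochore, differed by only 0.11, with KO arrays at 9.13 to 9.15 and WT arrays at 8.99 to 9.06.

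The genes of RNA processing, decay and ribosome assembly had a median of 0.48 over 10 genes, with 8 wholly above in KO, 1 wholly below and 1 that overlapped. Edc4, the scaffold of the mRNA decapping complex, read 10.30, 10.32 and 10.41 in KO and 9.98, 9.89 and 9.95 in WT arrays. Mphosph6, a protein bound to the RNA exosome, read 9.99, 10.06 and 10.06 in KO and 9.36, 9.27 and 9.42 in WT arrays. Its difference of 0.69 was close to the 0.66 of the dimmer Exosc6, a core subunit of the exosome. Nob1, the nuclease that trims the small ribosomal RNA, differed by 0.53, and Zc3h18, an adaptor of nuclear RNA decay, by 0.42. Ddx28, a helicase of mitochondrial ribosome assembly, differed by 0.23.

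Sf3b3, a subunit of the SF3b splicing complex, did not follow on its brightest probe set. That set read 9.55, 9.49 and 9.63 in KO and 9.57, 9.56 and 9.62 in WT arrays. Its second probe set read 8.07, 8.11 and 8.22 in KO and 7.15, 6.91 and 7.20 in WT arrays. The same gene thus gave -0.03 on one probe set, or 0.10 with arrays centred on the genes of other chromosomes, and 1.05 on the other. The mean of both sets gave 0.51. Esrp2, an epithelial splicing regulator, was dim and split in the same way. Its brighter probe set read 5.19, 5.09 and 5.23 in KO and 5.46, 5.42 and 5.31 in WT arrays, while the other differed by 0.41.

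Neighbours with facing promoters did not always move together. Nip7, a factor of ribosome assembly, read 10.49, 10.60 and 10.55 in KO and 9.82, 9.81 and 9.94 in WT arrays. Cog8, a subunit of the Golgi tethering complex COG, starts 140 bases away on the opposite strand and read 7.58, 7.58 and 7.55 in KO and 7.52, 7.47 and 7.63 in WT arrays. The differences were 0.68 for Nip7, whose groups did not overlap, and 0.03 for Cog8, whose groups did. The other Cog8 probe sets gave 0.13 and 0.13. Rnf166, a ubiquitin ligase, and Ctu2, an enzyme of tRNA thiolation, start 69 bases apart and differed by 0.47 and 0.94. Prmt7 and its neighbour Slc7a6os, which start 121 bases apart, differed by 0.55 and 0.78. Chmp1a differed by 0.54, and the dim Spata33, 70 bases away, by -0.08. In all, 7 pairs of measured genes with at least 1 of the 58 genes started within 1000 bases of each other in opposite directions.

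The ubiquitin and proteasome genes had a median of 0.36 over 7 genes, and 6 lay wholly above in KO. Usp10, a deubiquitinase, read 10.60, 10.73 and 10.72 in KO and 10.46, 10.42 and 10.55 in WT arrays. Rnf166 read 9.19, 9.18 and 9.18 in KO and 8.69, 8.67 and 8.78 in WT arrays. The ubiquitin ligase Wwp2 differed by 0.45, the kelch protein Klhdc4 by 0.36 and the F-box protein Fbxo31 by 0.22. A second, dim Fbxo31 probe set read 4.75, 4.90 and 4.97 in KO and 5.59, 5.40 and 5.84 in WT arrays, in the opposite direction. Klhl36 was dim and overlapped.

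The genes of membrane traffic had a median of 0.35 over 6 genes, and all but Cog8 lay wholly above in KO. Vps4a, the ATPase that takes ESCRT-III filaments apart, differed by 0.54, and Chmp1a, an ESCRT-III subunit far along the row, also by 0.54. Ranbp10, at the centromere-side end of the row, read 8.77, 8.83 and 8.78 in KO and 8.44, 8.43 and 8.52 in WT arrays. Cog4, the other COG subunit in the row, read 8.86, 8.76 and 8.74 in KO and 8.67, 8.64 and 8.67 in WT arrays. Its difference was 0.12, and its groups did not overlap. The other 3 Cog4 probe sets gave 0.24, 0.32 and 0.33, and the difference was 0.25 with probe sets averaged and also with arrays centred on the genes of other chromosomes. Vac14, the scaffold of the lipid kinase Pikfyve, differed by 0.36.

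Adhesion, transport and scaffold genes ranged from 0.25 to 0.50 over 6 genes, and all 6 lay wholly above in KO. Cdh1 encodes E-cadherin, which holds stem cell colonies together. It read 11.47, 11.51 and 11.53 in KO and 11.20, 11.11 and 11.13 in WT arrays. The difference of 0.36 was the same, to 2 decimals, as the median of the 58 genes. Its neighbour Cdh3, P-cadherin, differed by 0.45 on its brighter probe set and by -0.05 on a dim one. Sntb2, a syntrophin that anchors membrane proteins, read 8.50, 8.45 and 8.37 in KO and 7.92, 8.31 and 8.28 in WT arrays, where the first WT array was lower than the others. Its difference of 0.27 was 0.15 without that array. The potassium-chloride transporter Slc12a4 differed by 0.45 and the amino acid transporter Slc7a6 by 0.25.

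Lipid, glycan and lysosomal enzymes had a median of 0.25 over 8 genes, of which 3 were above the median level. These were Mbtps1, Pla2g15 and Plcg2. Mbtps1, the protease that activates the sterol regulator SREBP, read 10.42, 10.45 and 10.54 in KO and 9.85, 9.93 and 9.88 in WT arrays. Its 2 dimmer probe sets differed by 0.82 and 1.30. Plcg2, a phospholipase C, read 8.86, 8.76 and 8.85 in KO and 8.50, 8.50 and 8.58 in WT arrays. St3gal2, a sialyltransferase, read 6.25, 6.63 and 6.33 in KO and 5.67, 5.52 and 5.82 in WT arrays, a difference of 0.73 that was 0.32 with its probe sets averaged. Has3, which makes hyaluronan, was dim and read 3.27, 3.22 and 3.41 in KO and 3.36, 3.31 and 3.36 in WT arrays.

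The redox, nucleotide and mitochondrial genes had a median of 0.58 over 5 genes, with 4 wholly above in KO, and ranged widely. Aprt, which salvages adenine, read 11.14, 11.05 and 11.12 in KO and 10.50, 10.48 and 10.58 in WT arrays, a difference of 0.58. Cyba, a subunit of NADPH oxidases, differed by 0.19. Spg7, a subunit of the mitochondrial m-AAA protease, read 8.16, 8.23 and 8.17 in KO and 8.21, 8.25 and 8.19 in WT arrays. Its difference of -0.03 became 0.09 with arrays centred on the genes of other chromosomes. Among kinases, adaptors and cytoskeletal genes, Cmip, a signalling adaptor, read 10.29, 10.21 and 10.25 in KO and 9.91, 9.95 and 9.99 in WT arrays. The kinase Cdk10 differed by 0.26 and the kinase Pskh1 by 0.04. Gas8, a protein of ciliary axonemes at the distal end of the row, was dim, at 4.91 ± 0.09 in KO and 4.94 ± 0.11 in WT arrays (SD, n = 3 each), and overlapped.

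A gene was said to depart from the common difference where it lay over 0.5 from the median of the 58 genes and over 3 standard errors of its own difference. This held for 8 genes, 6 upward and 2 downward. Wwox, an oxidoreductase known as a tumour suppressor, read 7.15, 7.15 and 7.25 in KO and 5.31, 4.77 and 5.17 in WT arrays on its brightest probe set. The difference of 2.10 (SE 0.13) was far above those of its other 3 probe sets, 0.72, 0.46 and 0.09. This set was the brightest over all arrays only through its KO levels. In WT arrays alone its mean lay below that of the set that differed by 0.46. It also lay below the median WT level of all genes. The choice of the brightest probe set thus favoured a large difference for Wwox. With the probe sets averaged Wwox differed by 0.84.

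Cyb5b and Cotl1 were more than 2-fold higher on bright probe sets. Cyb5b, a cytochrome b5 of the outer mitochondrial membrane, read 10.23, 10.20 and 10.25 in KO and 8.97, 9.02 and 9.07 in WT arrays. Its difference was 1.21 (SE 0.05), and its other 2 probe sets gave 1.26 and 0.56. Cotl1, an actin-binding protein, read 11.49, 11.57 and 11.49 in KO and 10.38, 10.32 and 10.37 in WT arrays. Its difference was 1.16 (SE 0.05), and all 6 of its probe sets lay between 0.78 and 1.23. Cotl1 is thus the upward departure that the most probe sets share.

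The other upward departures lay just under 2-fold. Tcf25, a component of ribosome quality control, read 9.22, 9.24 and 9.21 in KO and 8.31, 8.14 and 8.33 in WT arrays, a difference of 0.97 (SE 0.06). Psmb10, a catalytic subunit of the immunoproteasome, read 7.90, 8.02 and 7.97 in KO and 7.10, 6.94 and 6.99 in WT arrays on its only probe set, a difference of 0.96 (SE 0.06). Ctu2 read 9.86, 10.03 and 9.96 in KO and 8.96, 9.06 and 9.02 in WT arrays, a difference of 0.94 (SE 0.06). Its other probe set gave 0.78, and those of Tcf25 lay between 0.01 and 0.94.

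Both downward departures were dim genes with probe sets that disagreed. Galns, a lysosomal sulfatase, read 4.79, 5.15 and 4.92 in KO and 5.49, 5.11 and 5.25 in WT arrays, and its groups overlapped. Its difference of -0.33 (SE 0.13) stood beside 0.01 on its other probe set. Esrp2 gave -0.23 (SE 0.06), and 0.09 with its probe sets averaged. Among the 45 genes above the median level none departed downward by this rule, but 5 stayed within 0.1 of 0: Pskh1, Cog8, Terf2, Sf3b3 and Spg7.

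**Figure D2:**
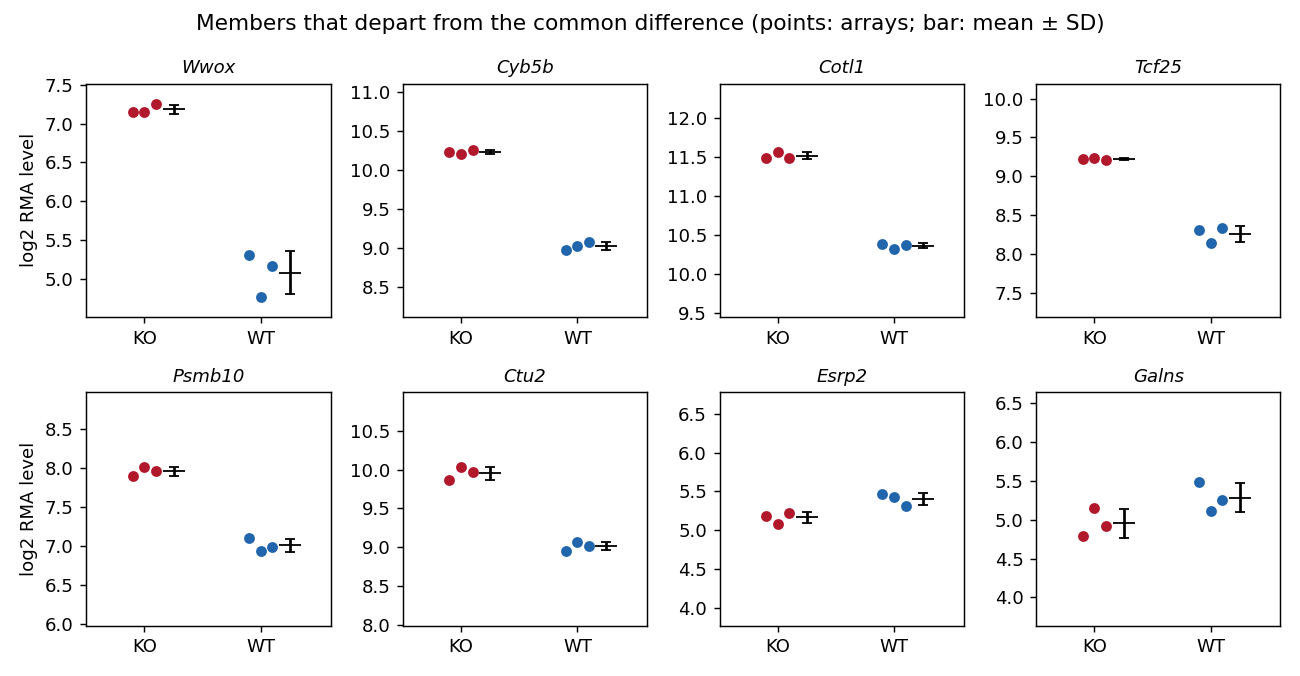
Log2 RMA level of the 8 genes that depart from the common difference, on KO arrays (left) and WT arrays (right), with the mean and SD (n = 3 each); each panel spans 3 log2 units, placed around its own values. The KO points lie wholly above the WT points for Wwox, Cyb5b, Cotl1, Tcf25, Psmb10 and Ctu2, wholly below for Esrp2, and overlap for Galns.

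The second brightest probe sets were also mostly higher in KO. The genes were chosen on these same arrays, so this was largely given in advance and is no support. Of the 58 genes 34 had several probe sets. In the second brightest set the KO mean was above the WT mean for 29 of these 34 genes, with a median difference of 0.34. Among the 19 such sets above the median level it was higher for 17, with a median of 0.46. The second set differed from the first by over 0.5 for 4 genes, Wwox, Sf3b3, Fbxo31 and Esrp2. These sets read the same RNA samples as the brightest ones and are no independent samples. No count over the second probe sets of other genes stands beside these counts.

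The list is a selection from the row of genes, so the genes between its members were examined as well. From Ranbp10 to Gas8 the array measured 201 genes, of which 143 were not on the list. Many of those are dim: 64 lay above the median level. These 64 had a median difference of 0.44, against 0.40 for the 45 listed genes above that level. In limma's fit with Benjamini-Hochberg adjustment 47 of the 64 were higher and 1, Zcchc14, was lower, where 20.7% of all genes above the median level were higher. The 79 dimmer ones had a median of 0.02. The largest differences between the listed genes were 1.36 for Gse1, a chromatin-associated protein, and 1.24 for Hsdl1. Other genes above the median level stayed within 0.1 of 0, 12 in all, among them Glg1 and Gabarapl2.

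**Figure D3:**
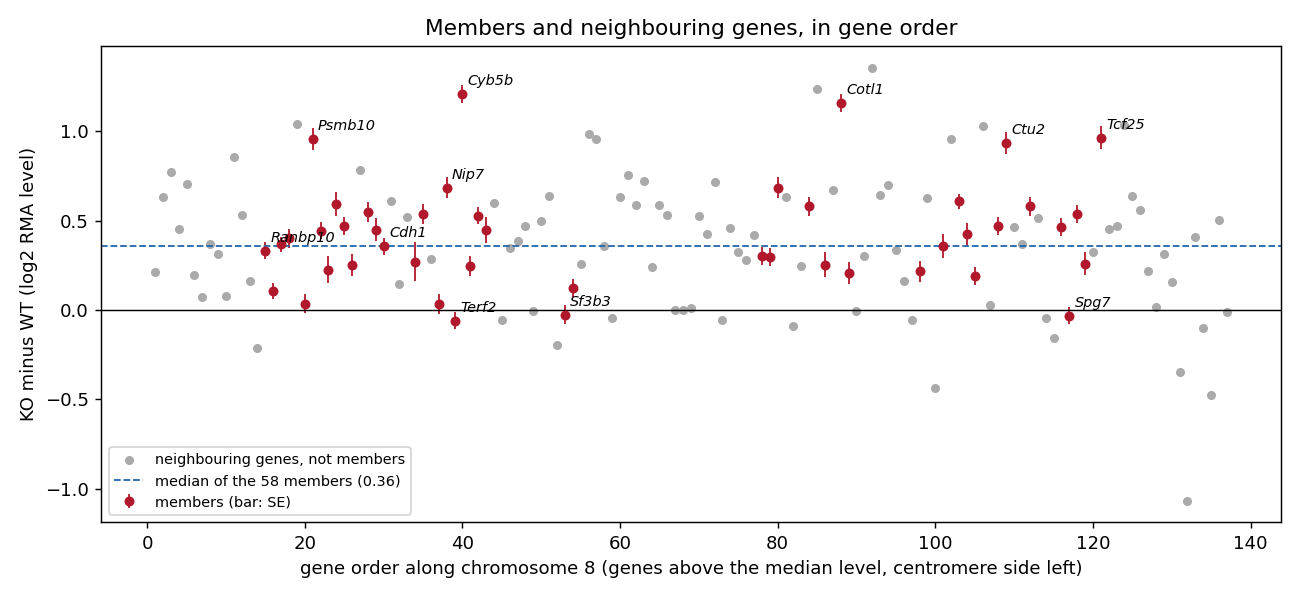
Difference in log2 level, KO minus WT, of the genes above the median level in their order on chromosome 8, from 20 measured genes before Ranbp10 to 20 after Gas8; red points are listed genes with their SE and grey points are other genes. Listed and other genes are mixed over the same heights, around the dashed median of 0.36, and neighbouring genes often differ from each other.

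Higher genes also lay beyond both ends of the row. The gene next to Ranbp10, Gfod2, read 6.24, 6.02 and 6.18 in KO and 6.49, 6.30 and 6.29 in WT arrays. Of the 20 measured genes before Ranbp10, 14 were above the median level, with a median of 0.34. Of the 20 after Gas8, 14 were above it too, with a median of 0.19. These distal genes were mixed: Rhou, a small GTPase, read 9.32, 9.32 and 9.29 in KO and 8.27, 8.29 and 8.27 in WT arrays. In limma's fit 8 of the 14 genes before Ranbp10 were higher and 0 lower. Of the 14 after Gas8, 8 were higher and 3, Galnt2, Pgbd5 and Ttc13, were lower. Of all genes above the median level 20.7% were higher.

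On the chromosome as a whole the listed row was one stretch among several. Genes above the median level from Cpe to Jak3, nearer the centromere, had a median of 0.44 over 61 genes. Those between Jak3 and Ranbp10 had 0.34 over 144 genes, and those before Cpe had -0.10 over 156 genes. Chromosome 8 had a median of 0.25 over 498 such genes. The other 19 chromosomes with enough genes had medians from -0.08 to -0.01. None of these differences between stretches was tested.

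**Figure D4:**
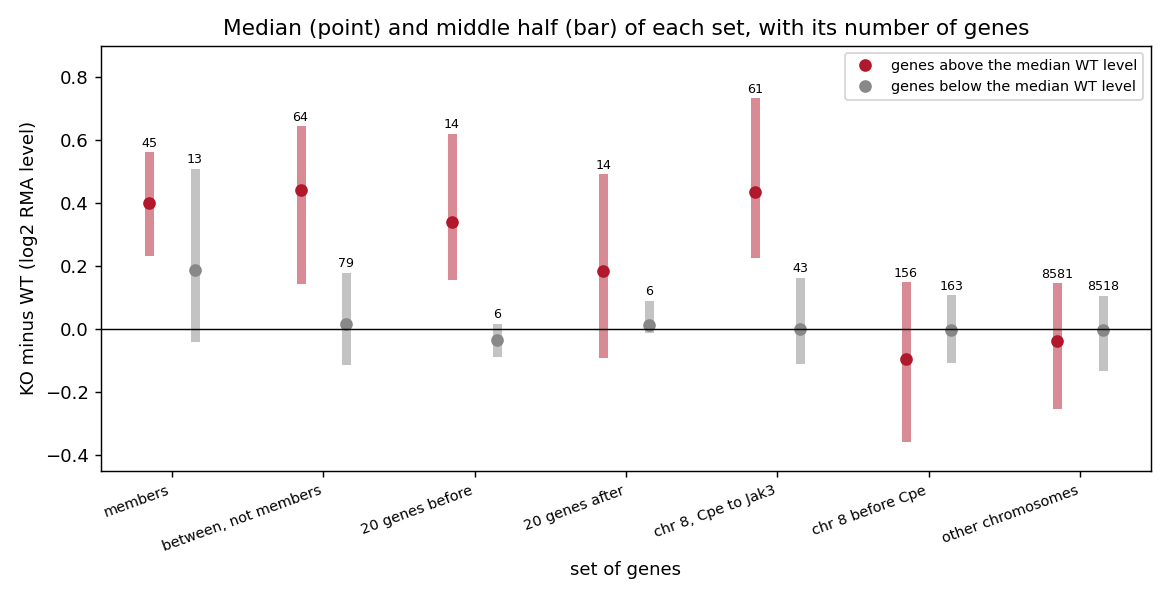
Median (point) and range between the quartiles (bar) of the difference in log2 level, KO minus WT, for sets of genes above (red) and below (grey) the median WT level, with the number of genes over each bar. The 45 listed genes above that level lie at 0.40 and the 64 genes between them at 0.44, while genes of other chromosomes lie at -0.04.

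Of the 58 genes, 16 code for subunits of stable complexes or pathways, and the other subunits of these were examined as genes that the list did not choose. Of 84 such partners 83 were measured, 76 of them on other chromosomes. In limma's fit with Benjamini-Hochberg adjustment 9 of the 76 were higher and 20 lower, with a median difference of -0.02. The 9 are 11.8% of the 76, where 12.5% of all genes were higher and 17.5% lower. However, 67 of the 76 lay above the median level. Of the 8581 genes of other chromosomes above that level, 1601 (18.7%) were higher and 2452 were lower, so lower calls outnumbered higher ones there too. The remaining 7 partners lie on chromosome 8, and all 7 were higher, with a median of 0.43. They were Cog2, Cenpn, Cenpu, Terf2ip, Acd, Ist1 and Afg3l1. All but Cenpu were already counted above: Cenpn, Terf2ip, Ist1 and Afg3l1 between the listed genes, Acd before Ranbp10 and Cog2 after Gas8. All 7 lay above the median level. Of the genes above that level 55.4% were higher on chromosome 8 as a whole and 73.4% between the listed genes. The 16 listed genes had a median of 0.31. With arrays centred on the genes of other chromosomes 45 partners were called, against 36 without.

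The values are given by complex as a description, since 30.0% of all genes were called and differences between subunits were not tested. In shelterin, Terf2 differed by -0.06, while Acd, just before Ranbp10, rose by 0.86 and Terf2ip rose by 0.43 (limma, Benjamini-Hochberg adjusted p = 0.000229 and 0.00646). In the m-AAA protease, Spg7 differed by -0.03, while Afg3l1, close to it, rose by 0.47. In the RNA exosome Exosc6 differed by 0.66, while the nuclease Dis3 fell by 0.75 and Exosc4 fell by 0.40 (limma, Benjamini-Hochberg adjusted p = 0.000116 and 0.00176). Of the 10 exosome partners measured, all above the median level, 1 rose and 4 fell. Of the 8581 genes of other chromosomes above that level, 1601 (18.7%) rose and 2452 fell. In SF3b the subunit Sf3b1 fell by 0.42 and Phf5a rose by 0.28. In the kinetochore Cenph fell by 0.64 and Cenpn rose by 0.33, and in the ESCRT-III group Chmp6 fell by 0.43 and Ist1 rose by 0.47.

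Among the immunoproteasome subunits Psmb10 was higher by 0.96, whereas Psmb9, another, was lower. Psmb9 fell by 0.90 (limma, Benjamini-Hochberg adjusted p = 0.000509), and Psmb8 did not pass. In tRNA thiolation Urm1 rose by 0.67, while the dim Mocs3 fell by 0.56. Among the partners of E-cadherin, Ctnnb1 rose by 0.18 and Ctnna1 fell by 0.28. In the COG complex, where Cog4 and Cog8 differed by 0.12 and 0.03, Cog2, on chromosome 8, rose by 0.41 and Cog7 fell by 0.32. In decapping Xrn1 fell by 0.40 and Edc3 by 0.29. In the Pikfyve complex Pikfyve rose by 0.33 and Fig4 fell by 0.31, and in SL1 Taf1b rose by 0.26 and Tbp fell by 0.22. No NADPH oxidase partner passed in limma.

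**Figure D5:**
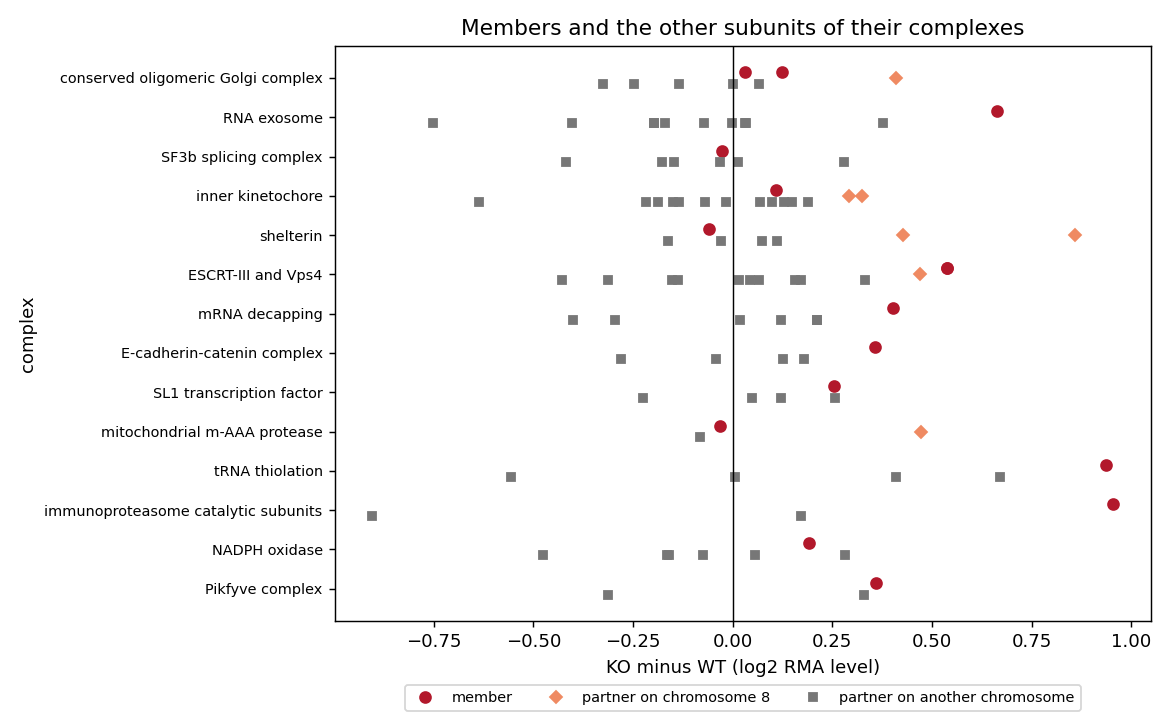
Difference in log2 level, KO minus WT (horizontal axis), of listed genes (red circles), their partners on chromosome 8 (orange diamonds) and their partners on other chromosomes (grey squares), by complex. The 7 partners on chromosome 8 lie between 0.29 and 0.86, while the 76 on other chromosomes lie between -0.90 and 0.67 around a median of -0.02.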

How the data were processed

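RNA of 3 Sirt1-/- and 3 Sirt1+/+ samples was hybridised to 1 array each, grouped by the titles. The deposited values are log2 levels. For these the submitters' processing notes name RMA and Partek 6.5, and the log2 scale was taken from the range of the values. Their settings are not stated. Of 45101 probe sets, 64 controls, 932 with several genes and 9160 with none were left out. Each of 18193 genes was read on its brightest probe set. Gene order came from the reference on GRCm38.p6, matched by Entrez identifier for 18032 genes.

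KO and WT were set against each other for every gene by linear models in limma 3.58.1 (R 4.3.3), two-sided, with Benjamini-Hochberg adjustment at 0.05; the code was tested on simulated data. The listed genes, the role groups, the partner lists and the tests were chosen with earlier results of these data known. Values are named for the 8 largest and 8 smallest differences, the 2 brightest genes of each role group and departing genes; partners are given by value for up to 2 called in each complex, with the largest change. Other genes were named after their values were seen. Alternatives were other probe set, scaling, filter and variance choices, a replicate block and each array left out. The number of arrays limits the precision.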

Additional observations from a re-analysis of the deposited data

How the results depend on the processing

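Every alternative reuses the arrays on which the genes were chosen, so the sign of their differences was largely given in advance. The median difference of the 58 genes, 0.36, stayed above 0 under every alternative tried. It was 0.484 with arrays centred on the genes of other chromosomes, which moved the median of all genes from -0.0148 to 0.110, and 0.378 with arrays centred on their medians. It was 0.401 over the 45 genes above the median level and 0.339 on the second probe sets of the 34 genes with several. Both were added after the data were seen. It ranged from 0.340 to 0.380 as single arrays were left out. For the genes between the listed ones the median, 0.140, was 0.265 with the centring on other chromosomes, 0.332 without the dimmest 40% of genes and 0.442 above the median level. It ranged from 0.0856 without WT replicate 3 to 0.171 without KO replicate 3, and this value rests on many dim genes. Esrp2 turned from -0.23 to 0.0900 with the probe sets of a gene averaged, and its call as lower was lost in most alternatives, among them the replicate block. The number of the 58 genes called higher, 41, was 33 to 38 with an array left out. The number of partners called, 36, was 27 with probe sets averaged or without WT replicate 1 and 47 with an intensity trend and robust variance. Like-numbered arrays deviated together at correlations of 0.0515, -0.0865 and 0.198 across genes, and 3 of the 6 arrays correlated best with their own number, so the numbers were not taken as pairs. With the replicate number as a block, 34 of the 58 genes were called higher and 0 lower, against 41 and 1 without it, and 4700 of all genes were called in either direction, against 5462. Apart from the scaling, the cause of these changes was not tested.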
